A study of Mus musculus with 6 samples.

Results

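Hepatocyte growth factor (HGF) is secreted as an inactive single chain, and it signals through the receptor tyrosine kinase MET only after a serine protease has cut that chain. Several proteases can make the cut, among them HGF activator, matriptase, hepsin and urokinase, and a pair of Kunitz-type inhibitors on epithelial surfaces, HAI-1 and HAI-2, hold the membrane-bound ones and HGF activator in check. HGF is classically made by stromal cells and read by MET on neighbouring epithelium, where it drives scattering, growth and tubule formation. The 8 genes described here cover that chain of events: the ligand Hgf, the receptor Met, the activating proteases Hgfac (HGF activator), St14 (matriptase), Hpn (hepsin) and Plau (urokinase), and the inhibitors Spint1 (HAI-1) and Spint2 (HAI-2). They were taken by symbol, and all 8 were found once each among the 55363 symbols of the deposited tables and passed the filter of a mean of at least 1 FPKM, as 15438 features did. FPKM counts sequenced fragments relative to transcript length and to library depth, so it is a level per length that can be compared between genes. The members were selected on biological role together with their FPKM differences between d/d and f/f in these same libraries, so the values of the 8 genes in that contrast are given as a description, without a test or a call.

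The libraries came from whole oviducts of pregnant mice, aged 6 to 8 weeks at mating with fertile males, taken on gestational day 3 counted from the plug as day 1. There were 3 libraries labelled Mettl3 f/f, which by convention means loxP sites on both copies of the gene, and 3 labelled Mettl3 d/d, where d stands by convention for the deleted copy. Mettl3 encodes the catalytic subunit of the enzyme that writes N6-methyladenosine on RNA. No source used here names the Cre driver, the exons deleted or the number of animals behind a library, so the spread between replicates may be partly technical.

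Mettl3 itself was higher where the label says d/d, with 11.8, 12.1 and 13.2 FPKM for replicates 1 to 3 of f/f against 19.8, 20.3 and 24.5 for those of d/d, and 1 value per gene cannot show a missing exon. Mettl3 shares 933 exon bases with Tox4 on the opposite strand, and reads of the pair could not be separated here; Tox4 spanned 15.6 to 17.5 FPKM over f/f and 15.1 to 16.5 over d/d. Every direction below therefore rests on the labels. The steps of the lowest values implied 16600000 to 17800000 fragments per library. The oviduct glycoprotein gene Ovgp1, which marks the secretory epithelium of this tissue, spanned 4264 to 5690 FPKM over f/f and 2651 to 5059 over d/d. The homeobox gene Hoxa10, used here as a marker of the uterine end, was at 3.48 FPKM in f/f replicate 1 and 4.24 in d/d replicate 1. It was at 9.47 to 26.5 FPKM in the other 4 libraries. Hoxa11 was lowest in the same libraries (0.194 and 0 FPKM), but Hoxd10 was higher in d/d replicate 1 (1.57) than in f/f replicate 3 (1.54). The libraries numbered 1 were not alike in other markers: summed multiciliated markers were highest in f/f replicate 1 (676 FPKM) and lowest in d/d replicate 1 (231). The log2 differences of the 8 genes, and the calls of other named genes that change, are also given without both libraries numbered 1. In whole tissue, more cells of a type and more RNA per cell cannot be told apart.

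RefSeq promoter sequences (GRCm38.p6) were on hand for 6 of the 8 genes, Hgfac, Hgf, Met, Hpn, Spint1 and Spint2. The 250 bases upstream of the start are printed for 3 of them, chosen for the range they span: Hgfac, whose level differed most between the genotypes, its substrate Hgf, and Spint2, the most abundant gene of the system. The windows are 5:35041259-35041508 on the plus strand for Hgfac, 5:16553245-16553494 on the plus strand for Hgf, and 7:29281978-29282227 on the minus strand for Spint2. None of the 3 overlaps an annotated exon. Each is written 5′ to 3′ in the direction of its gene, and capitals mark matches to the motifs searched.
Hgfac: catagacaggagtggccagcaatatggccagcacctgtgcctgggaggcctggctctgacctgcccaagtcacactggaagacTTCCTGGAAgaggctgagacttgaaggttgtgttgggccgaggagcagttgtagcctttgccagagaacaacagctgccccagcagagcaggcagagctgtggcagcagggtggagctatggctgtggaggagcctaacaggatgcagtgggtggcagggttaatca
Hgf: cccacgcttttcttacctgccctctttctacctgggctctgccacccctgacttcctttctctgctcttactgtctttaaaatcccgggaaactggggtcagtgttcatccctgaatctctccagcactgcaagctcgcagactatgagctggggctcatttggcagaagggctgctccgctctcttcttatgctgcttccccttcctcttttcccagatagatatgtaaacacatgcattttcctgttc
Spint2: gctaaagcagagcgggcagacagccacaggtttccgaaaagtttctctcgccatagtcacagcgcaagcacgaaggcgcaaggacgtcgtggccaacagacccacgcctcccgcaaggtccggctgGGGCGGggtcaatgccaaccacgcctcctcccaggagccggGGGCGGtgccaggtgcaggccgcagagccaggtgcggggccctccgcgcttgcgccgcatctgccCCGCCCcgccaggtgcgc

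The promoters differed in CpG content. Hgfac held 1 CpG dinucleotide in its 250 bases and Hgf 4 in its more upstream window, against a median of 6 over 32851 windows of the same length. Met and Spint2 held 24 each and Spint1 26. Hpn lay between, with 7 in its more upstream window. A total of 8 motifs were searched on both strands. The core promoter ones were the TATA box with the letters TATAAA, the NF-Y box with the letters CCAAT and the GC box with the letters GGGCGG. Those of signalled factors were the AP-1 site with the letters TGANTCA, the cyclic AMP response element with the letters TGACGTCA and the STAT site with the letters TTCNNNGAA. For steroid receptors the search used inverted repeats with 3 bases between, of GNACA for the progesterone and glucocorticoid receptors and of GGTCA for the estrogen receptor. Hgfac matched only the STAT letters, 167 bases upstream of its start, which 7.02% of all windows also hold, and Hgf matched none. GC box letters, held by 32.7% of all windows, occurred 3 times each in Met, Spint1 and Spint2 and 2 times in Hpn. Met also held the AP-1 letters, which 6.75% of windows hold. The Met window (6:17463707-17463956) overlaps an annotated exon of Met. The annotated gene starts at 17463800, so most of the window, with the AP-1 match, lies inside it. The Met counts are therefore not of wholly upstream sequence. The inverted repeats of the steroid receptors, held by 0.387% (progesterone and glucocorticoid) and 0.0639% (estrogen) of windows, were in none of these 6 promoters. A match is a description of the letters and not evidence that a factor binds.

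**Figure D1:**
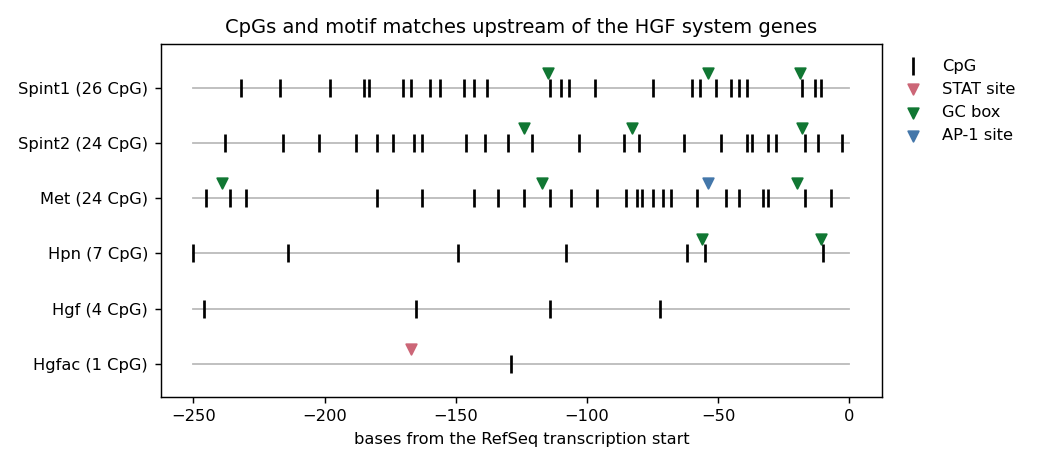
Positions of CpG dinucleotides (black ticks) and motif matches (triangles) in the 250 bases upstream of the RefSeq start of 6 HGF system genes, with the distance from the start in bases on the x axis and 1 gene per line. Hgfac at the bottom holds 1 CpG and 1 STAT match, and Spint1 at the top 26 CpGs and 3 GC boxes. The Met window overlaps an annotated exon of Met.

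The oviducts labelled f/f held abundant Spint2, intermediate levels of Spint1 and St14, and little Hgfac. In each of the 3 f/f libraries Spint2 was the highest of the 8 genes and Hgfac the lowest, with Plau next above it. Spint1 was above St14 in 2 of 3 libraries, and Hpn, Met and Hgf changed places between libraries, so the order within those neighbours did not hold beyond their spread. In the libraries labelled d/d the order was Spint2, St14, Spint1, Hgfac and Met in all 3, followed by Hgf above Hpn in 2 of 3, with Plau lowest. Hgfac thus stood at place 8 of 8 in f/f and at place 4 in d/d.

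Hgf, the ligand, gave 5.08, 6.92 and 7.03 FPKM for replicates 1 to 3 of f/f, against 10.1, 8.45 and 7.01 for those of d/d. The groups overlapped, since d/d replicate 3 lay just below f/f replicate 3. The means were 6.34 ± 1.10 and 8.53 ± 1.57 FPKM (SD, n = 3 each), a ratio of 1.35. The log2 difference, taken as the mean of log2(FPKM + 1) over d/d less that over f/f, was 0.38 with a standard error (SE) of 0.18. Each SE of a log2 difference here is the moderated one of the limma fit, which draws on the spread of all features. Without the replicates numbered 1, which held the lowest f/f and highest d/d value of Hgf, its log2 difference was 0.13. The Hgf gene (ENSMUSG00000028864; chromosome 5, 16553495 to 16620152, GRCm38) shares 484 exon bases with the unreviewed model Gm43489, which spanned 0.535 to 1.04 FPKM over f/f and 0.980 to 1.25 over d/d, and reads of the pair could not be separated here.

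Met, which encodes the receptor of HGF, was about 2 times as high in the libraries labelled d/d. It gave 8.92, 6.49 and 9.73 FPKM for replicates 1 to 3 of f/f, against 19.7, 15.7 and 15.3 for those of d/d. Every d/d library was above every f/f library, and the lowest d/d value was 1.57 times the highest f/f value. The means were 8.38 ± 1.68 and 16.9 ± 2.42 FPKM (SD, n = 3 each), a ratio of 2.01, and the log2 difference was 0.94 (SE 0.18). Leaving out 1 library at a time moved the ratio between 1.81 and 2.19. The gene (ENSMUSG00000009376) lies on chromosome 6 from 17463800 to 17573980 on the plus strand of GRCm38.

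Hgfac showed the widest difference of the 8. It encodes a secreted protease, made mainly by liver and itself activated by thrombin and related enzymes, that is among the most efficient converters of HGF to its active form. It gave 1.15, 1.43 and 1.39 FPKM for replicates 1 to 3 of f/f, against 22.3, 20.6 and 23.2 for those of d/d. The libraries of a group lay close together and the groups far apart, with the lowest d/d value 14.4 times the highest f/f value. The means were 1.32 ± 0.153 and 22.0 ± 1.29 FPKM (SD, n = 3 each), a ratio of 16.6, and the log2 difference was 3.31 (SE 0.13). The ratio stayed between 15.5 and 17.4 with any 1 library left out and without both libraries numbered 1. Ordered by log2 difference from the most higher in d/d, Hgfac stood at place 19 of the 15438 features. The values rest on roughly 70 to 87 fragments per f/f library and 1200 to 1300 per d/d library, computed from FPKM, the summed exon length of 3410 bases and the implied depth.

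The Hgfac gene (ENSMUSG00000029102; chromosome 5, 35041509 to 35048461, plus strand, GRCm38) overlaps no other annotated gene. Its nearest protein-coding neighbours on either side, chosen after the values of Hgfac were seen, did not pass the threshold used for other genes here, a Benjamini-Hochberg adjusted p under 0.05 from limma over all features tested. Rgs12, a regulator of G protein signalling that ends 1865 bases upstream, averaged 14.6 ± 1.92 FPKM over f/f and 17.4 ± 1.77 over d/d (SD, n = 3 each; log2 difference 0.24, SE 0.13, limma adjusted p = 0.278). Dok7, an adaptor of the muscle receptor kinase that starts 8305 bases downstream, averaged 1.05 ± 0.672 and 1.00 ± 0.113 FPKM (SD, n = 3 each; log2 difference 0.01, SE 0.29, limma adjusted p = 0.985). Both stood well below the change of the gene between them.

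St14 encodes matriptase, the transmembrane protease of epithelial surfaces that cuts pro-HGF and several other membrane proteins. It gave 31.3, 31.6 and 36.3 FPKM for replicates 1 to 3 of f/f, against 61.2, 51.7 and 52.3 for those of d/d, so that the groups did not overlap. The means were 33.1 ± 2.83 and 55.0 ± 5.35 FPKM (SD, n = 3 each), a ratio of 1.66, and the log2 difference was 0.72 (SE 0.11). The ratio ranged from 1.57 to 1.75 with 1 library left out and was 1.53 without both libraries numbered 1. St14 (ENSMUSG00000031995) lies on chromosome 9 from 31089402 to 31131853 on the minus strand of GRCm38.

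Hpn and Plau, the remaining proteases, overlapped between the groups. Hpn, a transmembrane protease best known from liver and kidney, gave 10.2, 7.83 and 6.13 FPKM for replicates 1 to 3 of f/f, against 9.22, 7.83 and 10.9 for those of d/d (log2 difference 0.20, SE 0.20). The highest f/f library was above 2 of the 3 d/d libraries. Plau, which encodes the secreted activator of plasminogen, gave 3.89, 4.02 and 5.83 FPKM for replicates 1 to 3 of f/f, against 7.01, 6.92 and 5.40 for those of d/d (log2 difference 0.43, SE 0.19). Its means were 4.58 ± 1.09 and 6.44 ± 0.903 FPKM (SD, n = 3 each), with 1 d/d library inside the f/f range.

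The levels of both inhibitors overlapped between the groups. Spint2 gave 374, 287 and 348 FPKM for replicates 1 to 3 of f/f, against 350, 300 and 402 for those of d/d, means of 337 ± 44.9 and 350 ± 51.4 (SD, n = 3 each). Its log2 difference of 0.06 (SE 0.16) was below its error, and its sign turned when single libraries were left out. Spint1 gave 43.1, 30.4 and 37.4 FPKM for replicates 1 to 3 of f/f, against 47.0, 40.6 and 41.7 for those of d/d, and the groups overlapped (log2 difference 0.23, SE 0.15). The ratio of Spint2 to Spint1 within a library, 8.69 to 9.44 in f/f and 7.38 to 9.65 in d/d, overlapped as well.

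**Figure D2:**
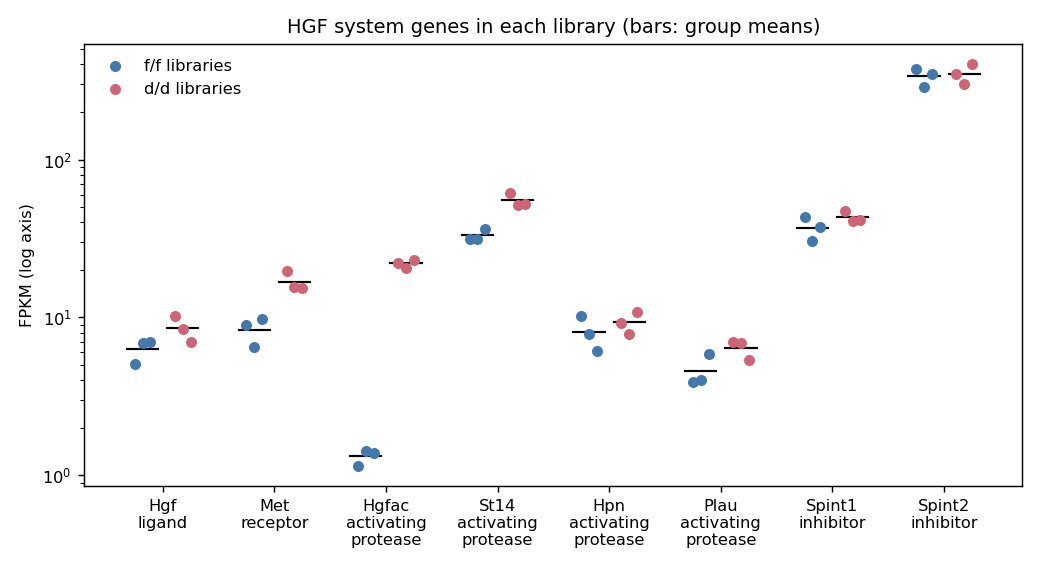
FPKM (log axis) of the 8 HGF system genes in each of the 3 f/f (blue) and 3 d/d (red) libraries, with black bars at the group means. Hgfac, Met and St14 have no overlap between the groups, and Spint2 is the highest gene in every library at 287 to 402 FPKM.

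The proportions of protease to inhibitor transcripts stood apart between the genotype labels. The summed FPKM of Hgfac, St14, Hpn and Plau was 47.0 ± 2.45 over f/f and 92.8 ± 6.43 over d/d (SD, n = 3 each), while that of Spint1 and Spint2 was 374 ± 51.2 and 394 ± 52.0 (SD, n = 3 each). Protease transcripts amounted to 11.2%, 14.1% and 12.9% of inhibitor transcripts for replicates 1 to 3 of f/f and to 25.1%, 25.6% and 20.7% for those of d/d. These ranges did not overlap. Most of the inhibitor sum was Spint2. The protease sum includes Plau, which is not among the proteases described above as held in check by these inhibitors. St14 made up 70.2% ± 2.96 of the protease sum in f/f and 59.3% ± 2.20 in d/d, and Hgfac 2.82% ± 0.366 and 23.8% ± 1.46 (SD, n = 3 each). The ratio of St14 to Spint1, the transcripts of matriptase and its main inhibitor, was 0.726 to 1.04 in f/f and 1.25 to 1.30 in d/d. Hgfac stood at 0.197 to 0.226 times the level of Hgf in f/f and at 2.20 to 3.30 times in d/d. These proportions are of transcripts and say nothing of protein or of activity, and they reuse the values that chose the genes.

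**Figure D3:**
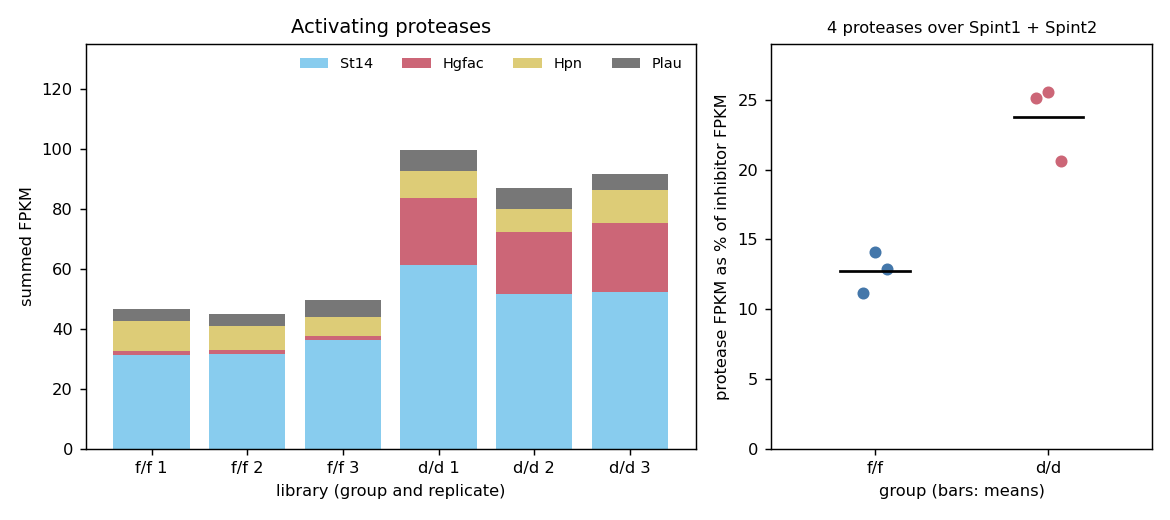
Left, the FPKM of the 4 activating proteases stacked for each library on an axis from 0; right, their sum as a percentage of the summed FPKM of Spint1 and Spint2, with points for libraries and bars for group means. The Hgfac segment grows from 2.82% to 23.8% of the stack on average, and the percentages on the right do not overlap.

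Of the 8 genes 3 (Hgfac, St14 and Met) had groups that did not overlap, all higher in d/d and 0 lower. Over all features 35.6% did not overlap, 18.1% as higher in d/d and 17.4% as lower. The median log2 difference was 0.40 over the 8 genes and -0.01 over all features. The genes were chosen with this contrast known, so nothing is read from these counts. Without both libraries numbered 1 the log2 differences were 3.24 for Hgfac, 0.88 for Met, 0.60 for St14, 0.37 for Hpn, 0.28 for Plau and for Spint1, and 0.13 for Hgf and for Spint2. Those of Hpn, Spint1 and Spint2 were larger than with all 6 libraries, and those of the other 5 genes smaller.

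Levels of cell type markers were set beside these values, since Hgfac and Hpn are best known from liver and St14, Met, Spint1 and Spint2 from epithelium. All 9 hepatocyte markers were below the filter, with sums of 0.217 to 0.844 FPKM over f/f and 0.681 to 0.702 over d/d, and Ttr, Fga and Fgg were listed at 0 in all 6 libraries. A marker is said to rise or fall where it passed the limma threshold, as 6.04% of all features did as higher in d/d and 4.97% as lower. Some calls lay near the threshold, with a limma adjusted p of 0.0493 for Lum, 0.0394 for Cdh1, 0.0385 for Des and 0.0345 for Krt18. Apart from Epcam, marker calls are not given with libraries left out. Of 9 general epithelial markers Epcam and Cdh1 rose and Krt18 fell. The summed level of these 9 was lower in d/d, at 1064 to 1381 FPKM over f/f and 888 to 997 over d/d. Of 8 macrophage markers 7 rose and 0 fell, with sums of 213 to 299 FPKM over f/f and 536 to 837 over d/d. Stromal sums overlapped, from 3059 to 3295 FPKM over f/f and 2771 to 4211 over d/d, with Lum rising and Pdgfra falling among 8 markers. Multiciliated sums overlapped too, at 355 to 676 and 231 to 628 FPKM, with 0 of 7 markers past the threshold. The multiciliated markers had a median log2 difference of -0.87, and only Tubb4b, the most abundant of them, had a positive one (0.44). Of 6 endothelial markers Vwf rose and 0 fell, with sums of 153 to 176 FPKM over f/f and 182 to 243 over d/d. Of 6 smooth muscle markers Des fell and 0 rose, with overlapping sums of 2109 to 5098 and 2635 to 4303 FPKM. Among 5 secretory markers 0 rose and 0 fell, with overlapping sums of 4794 to 5966 and 2838 to 5293 FPKM and a median log2 difference of -0.45. The mesothelial, adipocyte, ovarian steroidogenic and uterine marker lists likewise had 0 genes past the threshold, and their sums overlapped. Only 1 of 4 adipocyte and 3 of 6 ovarian markers passed the filter. Single libraries stood out: the ovarian Cyp11a1 was at 13.5 FPKM in f/f replicate 3 and at most 0.725 elsewhere. The adipocyte gene Adipoq was at 5.86 FPKM in f/f replicate 1 and at most 1.58 elsewhere. Mitochondrial genes took 3.61% to 5.70% of the summed FPKM over f/f and 6.50% to 9.70% over d/d, higher in each d/d library. The part of these markers and of the mitochondrial share in the levels of the 8 genes was not tested.

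The genes around the system were read from 7 lists of 82 genes in all, described by counts. These genes are not members and were tested in the fit over all 15438 features, of which 6.04% passed the threshold as higher in d/d and 4.97% as lower. HGF-like protein (Mst1) is the closest relative of HGF, and its receptor Mst1r (RON) that of MET. Mst1 was at or below 0.233 FPKM in every library. Mst1r gave 6.86, 9.96 and 8.31 FPKM for replicates 1 to 3 of f/f, against 5.08, 5.79 and 3.40 for those of d/d, lower in each d/d library, and missed the threshold (log2 difference -0.71, SE 0.21, limma adjusted p = 0.0768). Its direction was opposite to that of Met.

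Among 12 related proteases 4 passed the filter, 1 rose and 0 fell, with a median log2 difference of 0.24. The one that rose was Prss8, which encodes prostasin, the membrane-anchored partner that works in one proteolytic cascade with matriptase. It gave 28.8, 28.0 and 27.6 FPKM for replicates 1 to 3 of f/f, against 51.4, 38.0 and 46.6 for those of d/d, a ratio of 1.61 (log2 difference 0.66, SE 0.13, limma adjusted p = 0.0248). Its call held in 2 of the 6 fits with a library left out, those that omit replicate 1 of f/f or replicate 2 of d/d. Without both libraries numbered 1 it was lost (limma adjusted p = 0.0729). The plasma enzymes that act upstream of HGF activator or on pro-HGF (Plg, F2, F11, F12, Klkb1 and Habp2) were all below the filter, and Tmprss11d was listed at 0 throughout. Plat, the tissue plasminogen activator, was named after its values were seen because it was the most abundant of the list, from 181 to 202 FPKM over f/f and 247 to 515 over d/d (log2 difference 0.91, SE 0.25, limma adjusted p = 0.0670), and it passed only without d/d replicate 2.

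Among 7 other inhibitors and the urokinase receptor 3 passed the filter and none passed the limma threshold, with 0 higher and 0 lower (1 higher and 0 lower at an unadjusted p under 0.05). Plaur, the receptor that holds urokinase at the cell surface, spanned 1.89 to 2.41 FPKM over f/f and 2.52 to 4.53 over d/d (log2 difference 0.59, SE 0.22, limma adjusted p = 0.134). Serpine2, an inhibitor of thrombin and urokinase, gave 30.0, 110 and 106 FPKM for replicates 1 to 3 of f/f, against 49.9, 49.3 and 37.8 for those of d/d (log2 difference -0.63, SE 0.48, limma adjusted p = 0.425). The spread of Serpine2 came from f/f replicate 1, and without that library its log2 difference was -1.23 and passed. Serpina5, an inhibitor of HGF activator, was listed at 0 in all 6 libraries.

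Of 9 substrates of matriptase or hepsin 7 passed the filter, 1 rose and 0 fell, with a median log2 difference of 0.11. Epcam, an epithelial adhesion protein that matriptase cleaves, gave 125, 99.2 and 107 FPKM for replicates 1 to 3 of f/f, against 170, 154 and 177 for those of d/d, a ratio of 1.52 (log2 difference 0.60, SE 0.12, limma adjusted p = 0.0277). The call held in 1 of 6 fits with a library left out, that without f/f replicate 1, where Cdcp1 also passed in the lower direction.

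Of 12 binding partners of HGF and MET, all measured, 2 rose and 0 fell, with a median log2 difference of 0.25. Itga6, the laminin-binding partner of the MET-associated integrin beta 4, gave 42.2, 36.8 and 38.6 FPKM for replicates 1 to 3 of f/f, against 67.2, 83.3 and 61.2 for those of d/d, a ratio of 1.80 (log2 difference 0.82, SE 0.14, limma adjusted p = 0.0156). The call held in 4 of 6 fits with a library left out, not without f/f replicates 2 or 3. Ptprj, a receptor phosphatase that acts on MET, gave 8.36, 6.14 and 6.40 FPKM for replicates 1 to 3 of f/f, against 11.8, 15.5 and 10.5 for those of d/d (log2 difference 0.77, SE 0.18, limma adjusted p = 0.0442), and passed only without f/f replicate 1 when single libraries were left out. It also missed the threshold without both libraries numbered 1 (limma adjusted p = 0.0718).

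Of 24 signal adaptors and kinases downstream of MET 1 rose and 2 fell, with a median log2 difference of -0.05. Pik3r1, the regulatory subunit of PI 3-kinase, gave 80.9, 91.7 and 90.7 FPKM for replicates 1 to 3 of f/f, against 54.0, 48.1 and 43.1 for those of d/d (log2 difference -0.85, SE 0.12, limma adjusted p = 0.0105). Ranbp9, a scaffold protein reported to bind MET, gave 38.9, 37.1 and 38.2 FPKM for replicates 1 to 3 of f/f, against 22.6, 23.6 and 23.5 for those of d/d (log2 difference -0.69, SE 0.09, limma adjusted p = 0.0089). Both lost the call without f/f replicate 2 and held it without any other single library. Crk, an adaptor, was the gene that rose (ratio 1.35, log2 difference 0.43, SE 0.10, limma adjusted p = 0.0467), and its call was lost with any single library left out and without both numbered 1.

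RAS-MAPK output genes, which receptor kinases such as MET induce among many other inputs, included 14 of 16 above the filter, with 0 higher and 0 lower by limma (3 higher and 0 lower at an unadjusted p under 0.05) and a median log2 difference of 0.07. The most abundant were Ier3, from 48.5 to 78.1 FPKM over f/f and 67.6 to 91.1 over d/d (log2 difference 0.48, SE 0.21, limma adjusted p = 0.180), and the cyclin Ccnd1, at 46.4 to 82.0 and 73.2 to 85.4 (log2 difference 0.40, SE 0.21, limma adjusted p = 0.259). Both had their highest f/f value in replicate 1. Without both libraries numbered 1 these 2 genes passed in the higher direction. Etv4 and Fosl1, named after their values were seen, were below the filter. Etv4 spanned 0.162 to 0.246 FPKM over f/f and 0.619 to 1.90 over d/d, and Fosl1 reached at most 0.771 and 0.259 FPKM.

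Groups that did not overlap, higher and lower in d/d, numbered 0 and 1 of 1 for the HGF-like protein and receptor list, 2 and 0 of 4 for related proteases, and 1 and 0 of 3 for other inhibitors. They numbered 2 and 0 of 7 for substrates, 7 and 3 of 12 for binding partners, 3 and 4 of 24 for signal adaptors, and 4 and 0 of 14 for output genes. Over all features the shares were 18.1% higher and 17.4% lower.

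**Figure D4:**
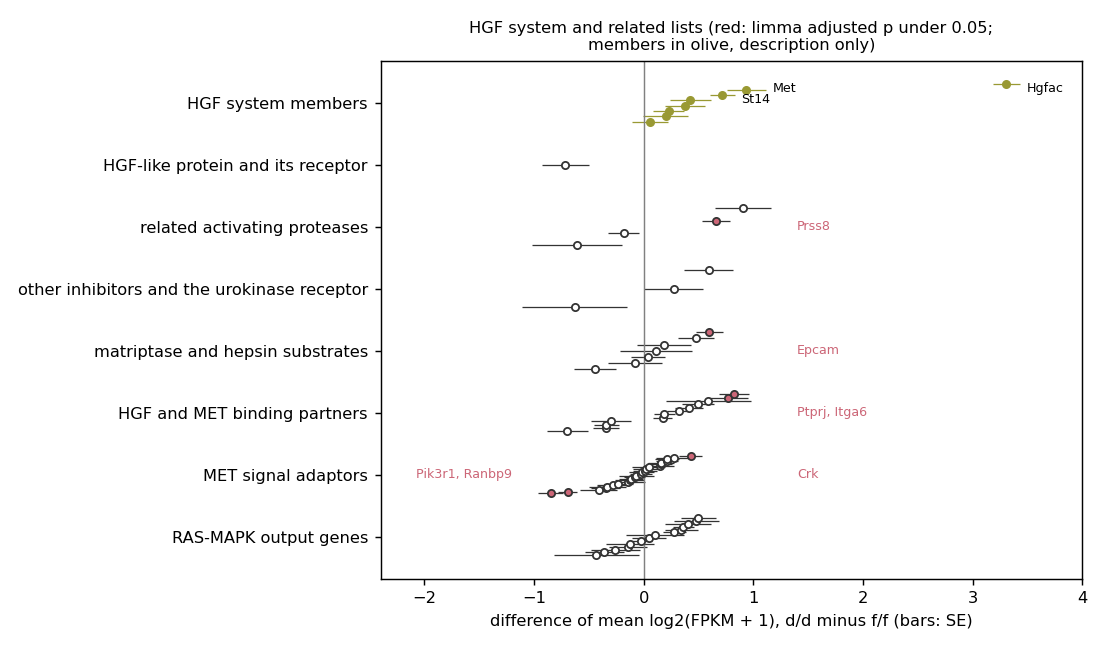
Mean of log2(FPKM + 1) over d/d less that over f/f, with the SE, for the 8 HGF system genes (olive) and the measured genes of the 7 related lists (open, or red where the limma adjusted p is under 0.05, with their names). Hgfac at 3.31 stands apart from all other points, which lie between -0.85 and 0.94.

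The genes whose levels followed Hgfac most closely over the 6 libraries were Gna12 (Pearson r of log2(FPKM + 1) 0.99997), Amigo1 (0.9991), Phax (0.9988), Dcaf13 (0.9988) and Klhl30 (0.9986), out of 13152 protein-coding candidates, of which 48 had r above 0.99. These r values mostly describe a shared step between the groups and a small spread within them, and carry no p. The step itself was smaller: Gna12, a G protein subunit, went from 51.5 ± 0.644 to 80.0 ± 0.825 FPKM, a ratio of 1.55, and Klhl30 from 2.24 ± 0.144 to 8.62 ± 0.442, a ratio of 3.85 (SD, n = 3 each), against 16.6 for Hgfac.

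**Figure D5:**
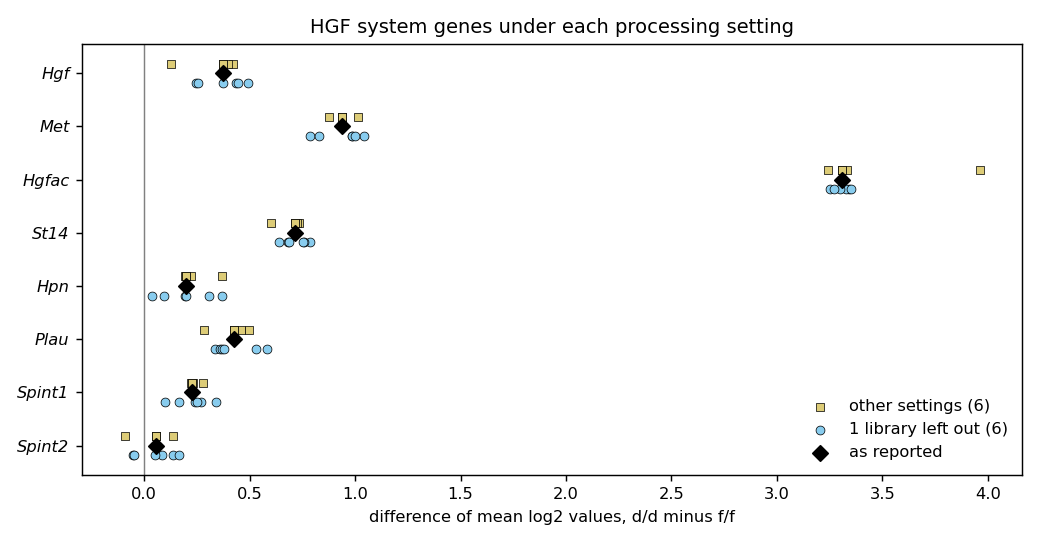
Difference between the mean log2 values of d/d and f/f for the 8 HGF system genes as reported (black diamonds), with 1 library left out (blue, 6 fits) and under 6 other settings (yellow). Hgfac stays between 3.24 and 3.96, Met between 0.78 and 1.04 and St14 between 0.60 and 0.78, while Spint2 lies on both sides of 0.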

How the data were processed

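RNA from whole oviduct was extracted with TRIzol and made into TruSeq libraries, per the labels' protocols. Values deposited by the authors were taken to be FPKM, with 1 value for each Ensembl gene in a library; the unit was inferred from Cufflinks 2.2.1, named per the submitters' processing notes, and from totals that differ between libraries. HISAT2 2.2.1, mm9 and mm10 are also named there, with no role. For annotation, filters and strand setting the sources used here give nothing, so antisense reads cannot be told apart.

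Rows that shared a symbol were summed. Features with a mean of at least 1 FPKM were log2-transformed as log2(FPKM + 1) and fitted in R 4.3.3 by limma 3.58.1 (variance trend, genotype only, two-sided, Benjamini-Hochberg over all 15438 features); such differences understate changes of low genes. The fit was tested on simulated data. Depth came from the lowest step of single-transcript genes, found as their most crowded low value after scaling by length. Of the 304 to 395 such genes per library near or below that step, 91.6% to 95.2% lay within 1% of it. This share covers only genes preselected as low. Other values gave no whole counts, so no count model was used. Coordinates are from GENCODE M21 (GRCm38), matched by identifier.

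The members and lists were chosen with earlier results of these data known. Named genes are the members, Mettl3, up to 4 genes per list past the threshold or else the 2 most abundant, and the 5 most like Hgfac; others are marked as chosen later or complete a small count. Replicate numbers were not taken as pairs.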

Additional observations from a re-analysis of the deposited data

How the results depend on the processing

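The differences of the 8 genes kept their sign under a pseudocount of 0.1, no filter, quantile normalization, median-of-ratios scaling, the replicate block and with libraries left out, except that of Spint2, which was -0.09 with quantile normalization and between -0.05 and 0.16 with 1 library left out. Hgfac was at 3.96 with a pseudocount of 0.1, since its f/f level is close to the pseudocount of 1, and Hgf at 0.13 without both libraries numbered 1. With 1 library left out the log2 differences were 3.25 to 3.35 for Hgfac, 0.78 to 1.04 for Met, 0.64 to 0.78 for St14, 0.24 to 0.49 for Hgf, 0.34 to 0.58 for Plau, 0.04 to 0.37 for Hpn and 0.10 to 0.34 for Spint1.

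The planned count of the 8 genes past the threshold is left out, since they were chosen on this contrast. Counts in the other lists moved with the processing. With 1 library left out they were 0 to 2 higher among related proteases, 0 to 1 lower among other inhibitors, 0 to 1 higher and 0 to 1 lower among substrates, 0 to 3 higher among binding partners, 0 to 0 higher and 0 to 2 lower among signal adaptors, 0 to 1 higher among output genes, and 98 to 926 higher and 71 to 854 lower over all features, lowest without f/f replicate 2; those fits have fewer degrees of freedom. Without a filter 1 binding partner and 0 adaptors were higher, and 599 features were higher and 508 lower in all. Without both libraries numbered 1, 0 related proteases, 1 binding partner, 0 adaptors and 2 output genes were higher, and 1 other inhibitor (Serpine2) and 1 substrate (Cdcp1) lower.

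With the replicate block there were 0 related proteases, 0 substrates, 0 binding partners and 0 adaptors higher and 0 adaptors lower, and 174 features higher and 102 lower in all. The numbers are not said to pair the libraries: deviations from the group means correlated at -0.22, -0.06 and 0.00 across genes for numbers 1, 2 and 3, and f/f replicate 1 correlated best with d/d replicate 2 (0.28). Depth limits most the f/f level of Hgfac, at roughly 70 to 87 fragments per library.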
